A study of Homo sapiens with 6 samples.

Results

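Collagens, integrins and laminins are the proteins of the extracellular matrix, and their receptors, through which a cell holds on to its surroundings. Here they are the protein-coding genes of GENCODE release 44 whose symbols begin with COL, ITGA, ITGB, LAMA, LAMB or LAMC followed by the number or letter of a chain, 81 genes of 20046. They comprise 44 collagen, 25 integrin and 12 laminin genes. A peak of accessible chromatin belonged to one of these genes when its centre lay in the gene body, or, for an intergenic peak, when that gene had the nearest protein-coding start site. Of 152800 peaks, 1108 met this rule, and 1103 of them passed the filter on low counts and were tested, together with 150117 peaks in all.

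The data are ATAC-seq libraries of A375, an established human melanoma cell line, in which the Tn5 transposase cuts and tags accessible DNA, so that the reads in a peak rise with its accessibility. The 3 empty vector libraries came from A375 cells that carried a vector without an insert, and the 3 HMGB2OE libraries from a stable A375 line made by lentiviral transduction to overexpress HMGB2, an architectural protein that bends DNA. The comparison therefore addressed what a raised dose of HMGB2 does to chromatin at these genes. The study describes the libraries as technical replicates of an experiment that was not repeated, so the spread, the standard errors and the p-values below measure differences between libraries and not between independent cultures or lines.

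Collagen chains wind into triple helices in the endoplasmic reticulum and are secreted. Fibrillar collagens build cable-like fibrils, network-forming collagens such as type IV build the sheet of the basement membrane, and FACIT collagens sit on the surface of fibrils. Laminins are cross-shaped trimers of an alpha, a beta and a gamma chain that polymerize on the cell surface as the other main component of the basement membrane. Integrins are pairs of an alpha and a beta chain that bind these ligands outside the cell and connect to actin through adaptors such as talin and vinculin inside it. In melanoma, integrins and laminins are known for their part in invasion through the basement membrane.

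The following sequences are the central 300 bases, on the plus strand of hg38, of 4 called peaks of these genes, the 2 that rose most and the 2 that fell most outside the chromosome that holds COL22A1 and COL14A1, and of the called promoter peak of COL11A2. Capitals mark matches, on either strand, to the 6 short words that were searched for. These were TGACTCA (bound by AP-1 factors), GGAATG (TEAD), CACGTG or CATGTG (E-box words bound by MITF and related factors), ACAAAGG (SOX), CCAAT (NFY) and GGGCGG (GC box). The COL6A2 intron peak, which rose, lies at chr21:46117022-46117321 and holds 1 E-box word. The COL5A1 intron peak, which rose, lies at chr9:134706992-134707291, and its central bases hold no match. The intron peaks of ITGA11 at chr15:68347627-68347926 and of ITGB8 at chr7:20402400-20402699 fell, and their central bases hold no match either. The COL11A2 peak, which rose, lies at chr6:33177665-33177964, by an alternative start within the gene, and holds 1 TEAD, 1 E-box and 1 CCAAT word. A match says that the letters are present and not that a factor binds.
COL6A2: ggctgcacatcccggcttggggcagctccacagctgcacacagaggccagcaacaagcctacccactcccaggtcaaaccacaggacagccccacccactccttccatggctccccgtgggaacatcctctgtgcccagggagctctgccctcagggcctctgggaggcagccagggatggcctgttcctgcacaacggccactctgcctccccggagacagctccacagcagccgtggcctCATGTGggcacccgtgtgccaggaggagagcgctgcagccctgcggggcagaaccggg
COL5A1: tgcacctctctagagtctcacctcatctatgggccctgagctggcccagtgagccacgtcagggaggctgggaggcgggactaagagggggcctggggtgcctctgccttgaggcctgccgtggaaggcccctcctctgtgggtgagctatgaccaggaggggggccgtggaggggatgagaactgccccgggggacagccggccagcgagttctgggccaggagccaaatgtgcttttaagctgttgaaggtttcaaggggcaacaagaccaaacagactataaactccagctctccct
ITGA11: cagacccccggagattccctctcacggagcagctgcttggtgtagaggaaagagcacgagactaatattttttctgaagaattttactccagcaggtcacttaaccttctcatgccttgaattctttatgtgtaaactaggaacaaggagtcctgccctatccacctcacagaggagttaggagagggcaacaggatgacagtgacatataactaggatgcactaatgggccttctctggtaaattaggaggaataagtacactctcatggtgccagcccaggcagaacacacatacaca
ITGB8: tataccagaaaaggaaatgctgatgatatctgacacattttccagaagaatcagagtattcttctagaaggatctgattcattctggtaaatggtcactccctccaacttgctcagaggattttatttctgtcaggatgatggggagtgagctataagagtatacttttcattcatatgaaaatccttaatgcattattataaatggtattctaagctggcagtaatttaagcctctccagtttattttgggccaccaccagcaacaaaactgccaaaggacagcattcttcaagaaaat
COL11A2: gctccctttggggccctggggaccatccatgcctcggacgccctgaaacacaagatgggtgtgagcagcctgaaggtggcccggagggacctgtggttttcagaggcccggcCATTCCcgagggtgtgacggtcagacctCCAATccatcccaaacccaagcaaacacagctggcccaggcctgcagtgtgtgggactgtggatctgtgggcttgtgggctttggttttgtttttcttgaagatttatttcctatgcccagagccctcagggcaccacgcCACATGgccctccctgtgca

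The LAMA2 promoter peak was the one called peak at the annotated start of its gene. Its 251 bases upstream of that start, at chr6:128882887-128883137, are shown because the rise there and the falls in the introns of LAMA2 went in opposite directions. They hold 1 TEAD word.
LAMA2: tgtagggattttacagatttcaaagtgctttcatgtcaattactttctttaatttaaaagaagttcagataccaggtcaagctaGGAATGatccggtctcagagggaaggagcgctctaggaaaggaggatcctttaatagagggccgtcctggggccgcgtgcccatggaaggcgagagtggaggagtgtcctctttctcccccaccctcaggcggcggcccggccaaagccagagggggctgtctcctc

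Counts in peaks summed to between 26910189 and 45645294 per library, and libraries of the same condition differed by more than sampling noise (chi-square per degree of freedom 2.50 to 4.66). Conditions separated on the leading principal component (35.7% of variance). Within the HMGB2 gene, 2 peaks rose (log2 fold changes 1.16 and 1.67), while its promoter peak had 1986 ± 223 and 1973 ± 59.0 normalized counts (SD, n = 3 each) in empty vector and HMGB2OE libraries. Reads of the transduced insert would align to the exons of HMGB2, so these rises cannot be told apart from the insert itself. Among melanoma markers, promoter peaks were high at MITF (1295 normalized counts), S100B (866) and SOX10 (862) and lower at PMEL (230), and none lay within 3 kb of the start of MLANA, TYR or DCT. Leukocyte PTPRC and SPI1, epithelial CDH1 and fibroblast PDGFRA had no peak there. Other leukocyte (CD3E 248, CD14 96.3), epithelial (KRT14 587, KRT19 336, EPCAM 217, KRT5 123) and fibroblast markers (PDGFRB 619, THY1 186, LUM 171, DCN 44.2) did. No marker peak was called. Promoter accessibility is not RNA, and an accessible promoter does not show that a marker is expressed.

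A peak was called when edgeR's quasi-likelihood test gave an adjusted p-value under 0.05 over all tested peaks and the change was at least 1.5-fold. More peaks of these genes were called higher than lower in HMGB2OE cells. Of 1103 tested peaks, 28 were higher (2.54%, against 1.87% of all tested peaks) and 14 were lower (1.27%, against 1.44%). With no fold limit, 44 were higher and 38 lower, where 3.44% and 3.03% of all peaks passed in those directions. All 3 HMGB2OE libraries lay above all 3 empty vector libraries at 186 peaks (16.9%, against 12.6% of all peaks) and below them at 140 (12.7%, against 12.5%). The median log2 fold change was 0.02 for these genes and −0.0049 for all tested peaks. The 42 called peaks belonged to 34 genes, and the other 47 genes had none. At all 42 the groups did not overlap, and the same held at 98.2% of all called peaks in either direction. Separation of the libraries at a called peak, where described below, therefore adds no support to its call. Without HMGB2OE replicate 1, HMGB2OE replicate 3, empty vector replicate 2 or empty vector replicate 1, 15, 16, 17 and 18 peaks were called higher, and without HMGB2OE replicate 3 or empty vector replicate 2, 6 were called lower in each case. The share of all tested peaks called higher was also lower in those 4 fits (1.21% to 1.64%), as was the share called lower in the latter pair (1.10% and 1.03%). A set of 11 peaks, 7 higher and 4 lower, was called in every alternative fit and with each library left out. The 7 were at COL22A1, COL6A2, COL5A1, COL21A1, COL4A3, ITGA9 and the LAMA2 promoter, and the 4 at ITGA11, ITGB8, LAMA2 and COL19A1.

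The families differed in their counts, which are given as descriptions without a test of the difference. Collagen genes had 18 peaks higher and 7 lower of 599 (3.01% and 1.17%), integrin genes 7 higher and 3 lower of 331 (2.11% and 0.906%), and laminin genes 3 higher and 4 lower of 173 (1.73% and 2.31%). The median log2 fold change was 0.05 for collagen peaks, 0.02 for integrin peaks and −0.09 for laminin peaks. With no fold limit, 31 collagen peaks were higher and 15 lower, whereas 3 laminin peaks were higher and 12 lower.

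**Figure D1:**
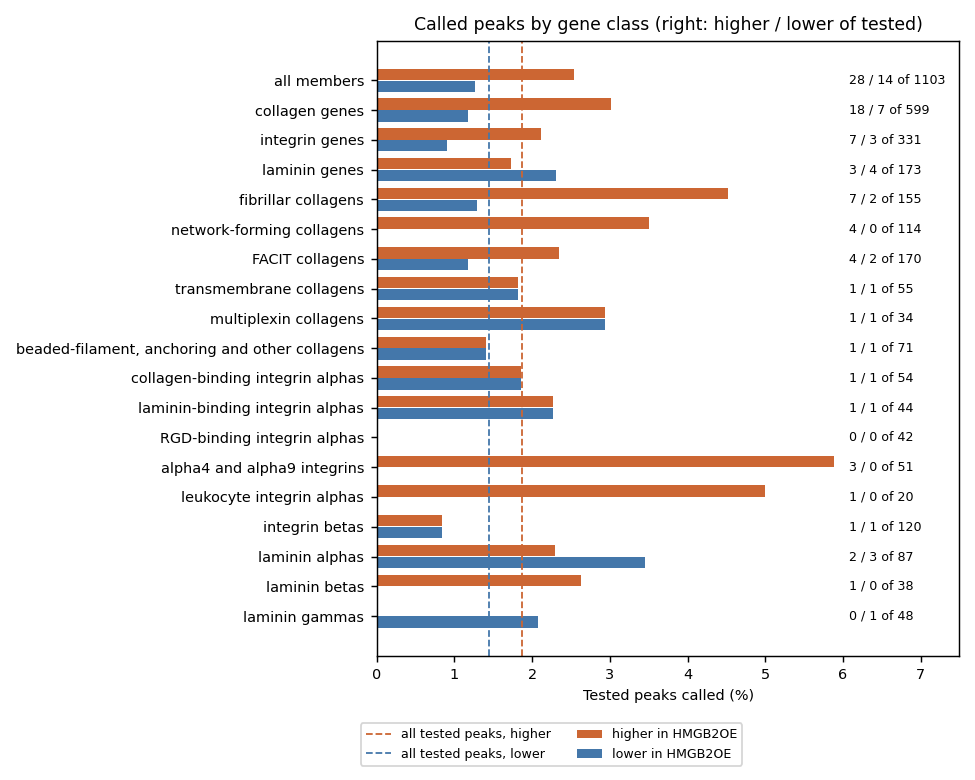
Bars give the percent of tested peaks called higher or lower in HMGB2OE libraries, for all 81 genes, for each family and for each structural or functional class, with the counts at the right. Dashed lines mark all tested peaks (1.87% higher and 1.44% lower), and classes of few peaks, such as the 20 of leukocyte integrin alphas, reach high percentages with 1 call.

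Among the collagens, calls in the higher direction were most numerous in the fibrillar class, which had 7 higher and 2 lower of 155 peaks (4.52% and 1.29%). COL5A1 encodes a chain of type V collagen, which is known to nucleate fibrils and set their diameter. An intron peak of COL5A1, 65.3 kb from the gene start, had 72.3, 68.0 and 81.9 normalized counts in the empty vector and 149.6, 148 and 137 in the HMGB2OE libraries (log2 fold change 0.97, standard error 0.16, adjusted p = 0.000388 by edgeR). The groups were far apart, with the lowest HMGB2OE library well above the highest empty vector library. COL27A1, a fibrillar collagen of cartilage, rose in an intron 130.1 kb from its start, on chromosome 9 from 114285367 to 114285868, with 69.5, 45.6 and 76.1 normalized counts in the empty vector libraries and 93.5, 116 and 108 in the HMGB2OE libraries (log2 fold change 0.76, standard error 0.20, adjusted p = 0.0194 by edgeR). Here the gap between the groups was narrow, and the call was lost without empty vector replicate 2, HMGB2OE replicate 2 or HMGB2OE replicate 3. COL1A1 and COL1A2 encode the chains of type I collagen, the most abundant collagen of skin. An intergenic peak 17.9 kb upstream of COL1A1, on chromosome 17 from 50219286 to 50219787, fell, with 139, 129.9 and 93.6 normalized counts among empty vector replicates and 74.0, 80.1 and 59.7 in HMGB2OE replicates (log2 fold change −0.75, standard error 0.18, adjusted p = 0.0122 by edgeR). Empty vector replicate 3 was the nearest to the HMGB2OE libraries, and the call was lost without empty vector replicate 1, empty vector replicate 2 or HMGB2OE replicate 3. At COL1A2, an intergenic peak 46.6 kb upstream was called in the other direction, with a log2 fold change of 0.73. The remaining fibrillar calls were rises at COL24A1, COL2A1, COL11A1 and COL11A2 (log2 fold changes 0.59 to 0.65) and a fall at COL5A2 (−0.63).

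Network-forming collagens had 4 peaks called higher and none lower of 114 (3.51% and 0%). An unadjusted p-value under 0.05 by edgeR was found at 33 of the 114, beside 31358 of all 150117 tested peaks. COL4A3 encodes a chain of the type IV collagen of kidney and other specialized basement membranes. Its called intron peak, 103.4 kb from the start on chromosome 2 from 227267749 to 227268250, had 231, 186 and 236 normalized counts in the empty vector and 373, 304 and 406 in the HMGB2OE libraries (log2 fold change 0.74, standard error 0.13, adjusted p = 0.000543 by edgeR). All HMGB2OE libraries were above all empty vector libraries, and no library left out removed the call. COL4A1, a chain of the type IV collagen found in basement membranes throughout the body, had an intron peak with a log2 fold change of 0.72. The short-chain collagen gene COL8A1 had 2 called peaks, in an intron and upstream, with log2 fold changes of 0.62 and 0.63.

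FACIT collagens had 4 peaks higher and 2 lower of 170 (2.35% and 1.18%). COL21A1 encodes a FACIT-like collagen of blood vessel walls. Its called intron peak, 29.3 kb from the start on chromosome 6 from 56364565 to 56365066, had 140.4, 134 and 137 normalized counts in the empty vector libraries and 255, 273 and 212 in the HMGB2OE libraries (log2 fold change 0.85, standard error 0.13, adjusted p = 0.000181 by edgeR). The empty vector libraries were nearly equal and all HMGB2OE libraries stood well above them. COL19A1, a rare FACIT collagen of basement membrane zones, went the other way at 2 intron peaks that lie less than 5 kb apart. The peak from 69918683 to 69919184 on chromosome 6 had 183, 168 and 181 normalized counts among empty vector replicates and 112, 123 and 94.6 in HMGB2OE replicates (log2 fold change −0.68, standard error 0.15, adjusted p = 0.00445 by edgeR). Its neighbour from 69913910 to 69914411 had 76.4, 108 and 93.6 normalized counts in the empty vector and 57.0, 64.2 and 58.5 in the HMGB2OE libraries (log2 fold change −0.64, standard error 0.20, adjusted p = 0.0439 by edgeR). Both were lower in every HMGB2OE library than in any empty vector library, and the second call was lost by DESeq2, with library totals alone as scaling, and without any library other than empty vector replicate 1.

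COL14A1 and COL22A1 are FACIT collagens of fibril surfaces and of tissue junctions such as that of muscle and tendon. The largest rise of all lay between genes, 234.9 kb upstream of COL22A1, at positions 139148640 to 139149141 of chromosome 8. It had 15.3, 9.46 and 28.1 normalized counts in the empty vector libraries and 46.8, 55.0 and 54.0 in the HMGB2OE libraries (log2 fold change 1.59, standard error 0.34, adjusted p = 0.00442 by edgeR). Counts in the empty vector libraries were low and widely spread, and the log2 fold change ran from 1.23 to 2.11 when each library was left out. COL14A1 had 2 called intron peaks. The first, from 120202187 to 120202688, had 23.6, 39.6 and 28.1 normalized counts among empty vector replicates and 77.4, 62.6 and 61.9 in HMGB2OE replicates (log2 fold change 1.11, standard error 0.26, adjusted p = 0.00784 by edgeR). The second, from 120319614 to 120320115, had 27.8, 29.3 and 37.4 normalized counts in the empty vector and 64.6, 50.9 and 57.4 in the HMGB2OE libraries (log2 fold change 0.87, standard error 0.26, adjusted p = 0.0425 by edgeR). Neither pair of groups overlapped, although the first call was lost without HMGB2OE replicate 1 and the second by DESeq2 and without any single library other than empty vector replicate 3.

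The other 3 collagen classes each had 1 peak called higher and 1 called lower. COL6A2 encodes a chain of the beaded-filament type VI collagen that surrounds cells. Its intron peak 19.1 kb from the start had 59.8, 101 and 86.6 normalized counts in the empty vector libraries and 187, 154 and 196 in the HMGB2OE libraries (log2 fold change 1.09, standard error 0.17, adjusted p = 0.000175 by edgeR). Every HMGB2OE library lay far above every empty vector library. COL15A1 and COL18A1 are multiplexins, collagens of the basement membrane with heparan or chondroitin sulphate chains. A peak 33.8 kb upstream of COL15A1, on chromosome 9 from 98909144 to 98909645, fell, with 77.8, 63.7 and 69.0 normalized counts among empty vector replicates and 39.1, 38.4 and 27.0 in HMGB2OE replicates (log2 fold change −0.98, standard error 0.24, adjusted p = 0.0127 by edgeR). All HMGB2OE libraries were below all empty vector libraries, and the call was lost without HMGB2OE replicate 3. A peak upstream of COL18A1 rose (log2 fold change 0.61). COL17A1 encodes the transmembrane collagen of hemidesmosomes. A peak 8.17 kb upstream of it, on chromosome 10 from 104093803 to 104094304, had 254, 287 and 199 normalized counts in the empty vector and 157, 162 and 139.6 in the HMGB2OE libraries (log2 fold change −0.69, standard error 0.14, adjusted p = 0.00226 by edgeR). The groups did not overlap, and without empty vector replicate 2 the change fell short of 1.5-fold. COL25A1, another transmembrane collagen, had an intron peak with a log2 fold change of 0.65, and a peak nearest to the start of COL6A3 had one of −0.59.

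**Figure D2:**
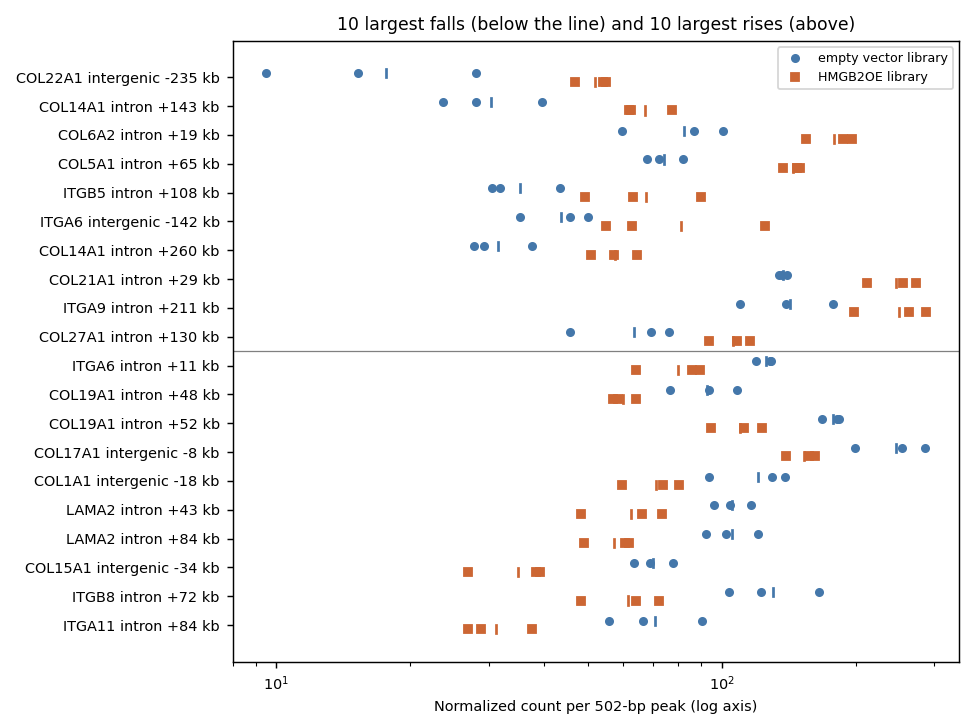
Points give the normalized count of each library, on a log axis, at the 10 peaks with the largest rises and the 10 with the largest falls, and short vertical lines give the mean of 3 libraries. Labels give the gene, the location and the signed distance from the gene start. The peaks were chosen among called peaks whose groups do not overlap, so their separation follows from the choice, and the groups were also separate at 98.2% of all called peaks in either direction. At COL22A1 the empty vector libraries had 9.46 to 28.1 counts.

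For the integrins, the strongest falls of single peaks were at ITGA11 and ITGB8. ITGA11 encodes an alpha chain that binds fibrillar collagen and is typical of fibroblasts. An intron peak of ITGA11, 84.4 kb from the start, had 90.3, 55.9 and 66.7 normalized counts in the empty vector libraries and 28.9, 37.5 and 27.0 in the HMGB2OE libraries (log2 fold change −1.16, standard error 0.26, adjusted p = 0.00639 by edgeR). The gene as a whole did not fall, since 13 of its 16 tested peaks had a log2 fold change above 0, with a median of 0.16. The summed counts of ITGA11 had a log2 fold change of 0.12 (adjusted p = 0.0737 by edgeR) and were not called. ITGB8 encodes the beta chain that pairs with ITGAV and is known to release active TGF-beta. Its called intron peak, 71.8 kb from the start, had 122, 165 and 104 normalized counts among empty vector replicates and 72.3, 64.2 and 48.4 in HMGB2OE replicates (log2 fold change −1.08, standard error 0.19, adjusted p = 0.00081 by edgeR). At both peaks the highest HMGB2OE library was below the lowest empty vector library, and both were called with every library left out. ITGB5, whose product also pairs with ITGAV, had a called intron peak on chromosome 3 from 124793246 to 124793747 with 30.6, 31.8 and 43.3 normalized counts in the empty vector and 49.3, 63.4 and 90.1 in the HMGB2OE libraries (log2 fold change 0.92, standard error 0.26, adjusted p = 0.0311 by edgeR). The HMGB2OE libraries were widely spread and replicate 1 was close to the empty vector range. This call was lost by DESeq2, and without empty vector replicate 1 or 2 or HMGB2OE replicate 2 or 3. ITGA1, a collagen-binding alpha chain, had an intron peak with a log2 fold change of 0.70, and ITGAL, the alpha chain of a leukocyte integrin, one with 0.61. The RGD-binding alpha chains, encoded by ITGA5, ITGA8 and ITGAV, had no called peak among 42. Of the 42, 5 had an unadjusted p-value under 0.05 by edgeR, beside 31358 of all 150117 tested peaks.

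ITGA6 encodes the alpha chain of the laminin receptors of hemidesmosomes and of many stem cells, and its peaks were called in both directions. An intergenic peak 142 kb upstream, on chromosome 2 from 172285083 to 172285584, had 50.03, 35.3 and 45.6 normalized counts in the empty vector libraries and 62.9, 55.0 and 125 in the HMGB2OE libraries (log2 fold change 0.88, standard error 0.27, adjusted p = 0.0427 by edgeR). HMGB2OE replicate 3 stood far above the other HMGB2OE libraries, and without it the log2 fold change was 0.45. The call was lost by DESeq2, with GC-content offsets, without HMGB2OE replicate 3 and without any empty vector library. An intron peak from 172437934 to 172438435 fell, with 129, 128 and 119 normalized counts among empty vector replicates and 89.3, 85.9 and 64.2 in HMGB2OE replicates (log2 fold change −0.64, standard error 0.17, adjusted p = 0.0198 by edgeR). There the empty vector libraries were close to each other, and the call was lost without empty vector replicate 1, empty vector replicate 2 or HMGB2OE replicate 3.

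ITGA9 encodes an alpha chain that pairs with ITGB1 and binds tenascin and other ligands, and it is close in sequence to ITGA4. It was the only gene here with 3 peaks called higher, all in introns. The peak on chromosome 3 from 37662619 to 37663120, 210.8 kb from the start, had 109.8, 139 and 178 normalized counts in the empty vector and 288, 199 and 263 in the HMGB2OE libraries (log2 fold change 0.80, standard error 0.15, adjusted p = 0.00171 by edgeR). The peak from 37532150 to 37532651 had 45.9, 64.5 and 83.1 normalized counts in the empty vector libraries and 105, 92.6 and 124 in the HMGB2OE libraries (log2 fold change 0.71, standard error 0.20, adjusted p = 0.0283 by edgeR). The peak from 37546935 to 37547436 had 84.8, 72.3 and 80.7 normalized counts among empty vector replicates and 109.7, 121 and 127 in HMGB2OE replicates (log2 fold change 0.59, standard error 0.17, adjusted p = 0.0298 by edgeR). In each of them all HMGB2OE libraries were above all empty vector libraries, as at every peak of these genes that was called higher. The first call held in every fit. The second was lost by DESeq2, and without empty vector replicate 1 or 2 or HMGB2OE replicate 1 or 3. The third was lost under 5 other settings, DESeq2 and GC-content offsets among them, and without any library other than empty vector replicate 1. Of the 37 tested peaks of ITGA9, 33 had a log2 fold change above 0, with a median of 0.23. The 71 other tested peaks within 500 kb of the gene had a median of −0.04. An intron peak of higher count, from 37604140 to 37604641, fell (mean ± SD of normalized counts 467 ± 20.5 in empty vector and 357 ± 40.0 in HMGB2OE libraries, log2 fold change −0.38, adjusted p = 0.0254 by edgeR), which is less than 1.5-fold. The closely related ITGA4 had 14 tested peaks, of which none was called and 8 were above 0.

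Of the 4 falls at laminin genes, 3 were at alpha chains. LAMA2 encodes the alpha chain of the laminin of muscle and peripheral nerve. Its promoter peak, on chromosome 6 from 128882887 to 128883388, had 106, 108 and 115 normalized counts in the empty vector and 183, 171 and 161 in the HMGB2OE libraries (log2 fold change 0.65, standard error 0.14, adjusted p = 0.00519 by edgeR). An intron peak 83.8 kb downstream of the start, from 128966720 to 128967221, had 121, 102 and 92.4 normalized counts in the empty vector libraries and 62.1, 49.2 and 60.8 in the HMGB2OE libraries (log2 fold change −0.87, standard error 0.19, adjusted p = 0.00557 by edgeR). A further intron peak 42.8 kb downstream, from 128925660 to 128926161, had 104, 116 and 96.0 normalized counts among empty vector replicates and 48.5, 73.4 and 66.4 in HMGB2OE replicates (log2 fold change −0.76, standard error 0.19, adjusted p = 0.0155 by edgeR). Thus within one gene the start was higher and both introns were lower in every HMGB2OE library, and 17 of 24 tested LAMA2 peaks had a log2 fold change below 0. The call from 128925660 was lost without empty vector replicate 2 or HMGB2OE replicate 1, and the other calls were kept. Among the other alpha chains, LAMA4, a laminin chain of blood vessels and many soft tissues, had an intron peak with 424, 418 and 436 normalized counts in the empty vector and 269, 300.3 and 265 in the HMGB2OE libraries (log2 fold change −0.61, standard error 0.11, adjusted p = 0.000568 by edgeR). These counts were higher than at most other called peaks, and the groups were well apart. LAMA3, the epithelial alpha chain, and LAMB4 each had an intron peak called higher (log2 fold changes 0.74 and 0.61).

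LAMC1, on chromosome 1, encodes the gamma chain of most laminins and was chosen for naming after its values were seen. None of its peaks was called, but 4 passed the p-value threshold without reaching 1.5-fold, all lower, with log2 fold changes of −0.46, −0.53, −0.48 and −0.52. The LAMC1 intron peak of highest count among them, from 183069763 to 183070264, went from a normalized count of 364 ± 37.2 with empty vector to 261 ± 17.3 in HMGB2OE libraries (SD, n = 3 each). Of 28 tested LAMC1 peaks, 25 had a log2 fold change below 0, with a median of −0.19. The summed counts of LAMC1 had a log2 fold change of −0.08 (adjusted p = 0.192 by edgeR) and were not called. Other peaks within 500 kb of LAMC1 were also lower, with a median of −0.09 over 103 peaks. Whether the change belongs to the gene or to the region was not tested.

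**Figure D3:**
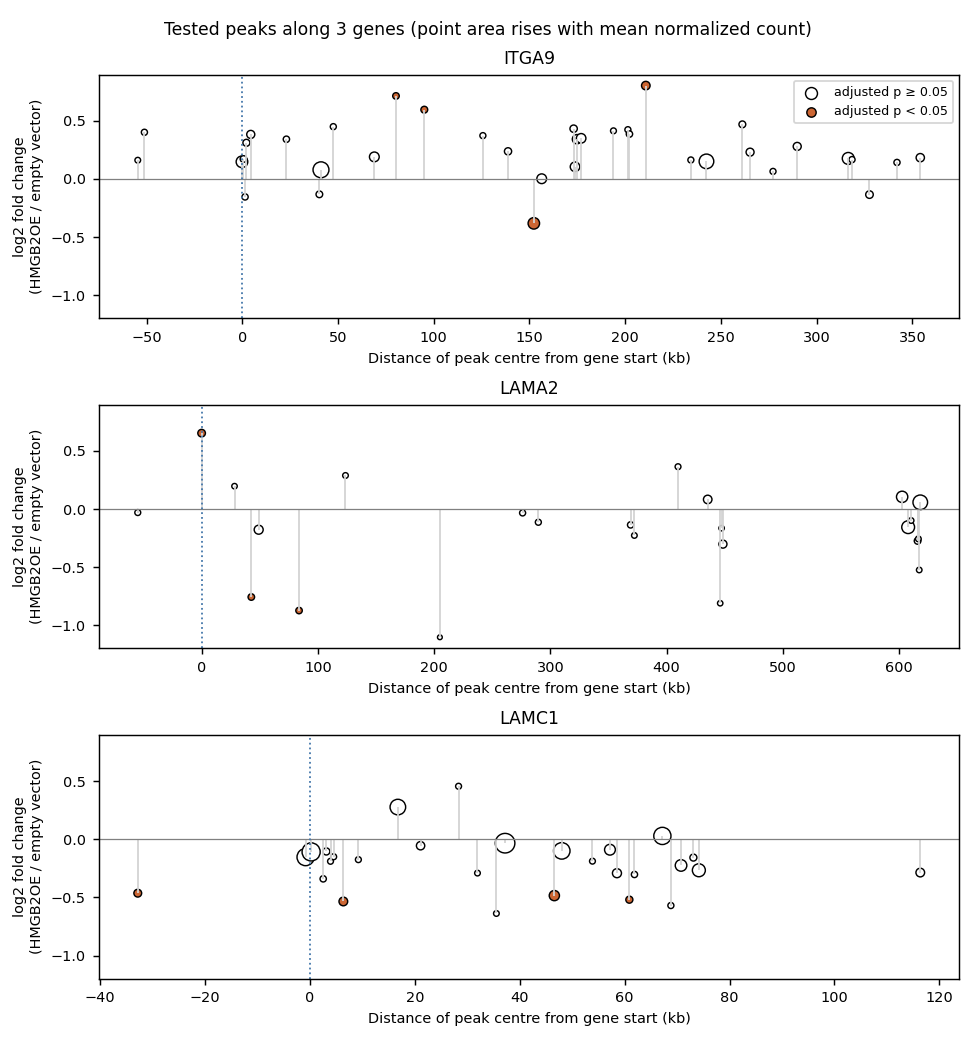
Each point is a tested peak of ITGA9, LAMA2 or LAMC1, placed by the distance of its centre from the gene start (kb, positive downstream, dotted line at 0) and by its log2 fold change of HMGB2OE over empty vector, with an area that grows with its mean normalized count. Filled points have an adjusted p-value under 0.05. Most ITGA9 points lie above 0 (33 of 37) and most LAMC1 points below it (25 of 28), and the LAMA2 start is above 0 with lower peaks downstream.

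Promoters of these genes varied widely in accessibility but little between conditions. Of 81 genes, 66 had an assigned peak within 3 kb of the start of a protein-coding transcript, and that of highest count was taken. These peaks ran from 42.6 normalized counts at LAMA1 to 1924 at ITGB8, with a median of 331. The median of all promoter peaks was 232, but there no highest peak per gene was chosen, so the medians do not compare like with like. Peaks have the same width, so these levels can be compared between genes, although the peaks lie at unlike distances from the starts. ITGB8, ITGB5 (1432), ITGA1 (1295), COL9A3 (1273), LAMC1 (1136), LAMB3 (1104), ITGA3 (1078) and LAMB2 (1051) were above 1000, and LAMA1, COL17A1 (49.1), COL4A3 (71.6), COL1A2 (73.5), COL21A1 (75.8) and ITGA8 (89.0) were below 100. The ITGB5 peak lies 22.3 kb from the gene start, at another annotated start, and the ITGA1 peak also lies in PELO, whose start it may mark. The 15 genes with no such peak included COL2A1, COL3A1, COL10A1, COL24A1, COL25A1, COL6A3, ITGAL and ITGB6. Thus COL2A1, whose distant peaks are counted above, had no assigned peak at an annotated start. A peak assigned only to COL4A4 (188 normalized counts) lies within 3 kb of the start of COL4A3 and was not counted for COL4A3. COL4A6 is among the 15 genes, although a peak assigned to COL4A5 lies within 3 kb of the COL4A6 start.

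Differences at these 66 promoter peaks lay between −0.32 (COL5A3) and 0.43 (COL21A1) on the log2 scale, with a median of −0.02. Some of these peaks lie at alternative starts far from the gene start, as at COL21A1 (146.5 kb), LAMA2 (607.9 kb) and LAMA3 (182.2 kb). The called peak at the gene start of LAMA2 had a lower count and is not among the 66, so the range leaves it out. Levels are normalized counts as the mean ± SD (n = 3 libraries each). COL5A3 was the one peak of the 66 that passed the p-value threshold, with 653 ± 63.4 in empty vector and 524 ± 45.5 in HMGB2OE libraries and a change of −0.32 on the log2 scale (adjusted p = 0.0472 by edgeR) that is below 1.5-fold. Among the integrin promoters named here, ITGA2, which binds collagen, had the largest difference, with 978 ± 24.2 in empty vector and 825 ± 51.2 in HMGB2OE libraries (log2 fold change −0.24, adjusted p = 0.0734). ITGB1, the beta chain shared by most matrix receptors, had 787 ± 45.4 in empty vector and 687 ± 41.6 in HMGB2OE libraries (−0.20, adjusted p = 0.190) at a start 47.5 kb inside the gene. ITGB3, the partner of ITGAV that is known to mark the vertical growth of melanoma, had 731 ± 58.6 in empty vector and 678 ± 23.0 in HMGB2OE libraries (−0.11), and ITGAV itself 959 ± 106 in empty vector and 949 ± 69.0 in HMGB2OE libraries (−0.02). ITGA3, ITGA4, ITGA5, ITGA6 and ITGA9 had −0.05, −0.02, −0.11, −0.14 and 0.15. None of these integrin differences passed the test.

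Type I collagen's COL1A1 promoter had 751 ± 4.99 in empty vector and 752 ± 82.0 in HMGB2OE libraries and that of COL1A2 70.1 ± 9.50 in empty vector and 76.9 ± 10.8 in HMGB2OE libraries, a difference in level of about an order of magnitude between genes whose products join in one trimer. COL4A1 and COL4A2 are transcribed in opposite directions from a shared promoter, and a single peak with 459 ± 33.8 in empty vector and 446 ± 35.7 in HMGB2OE libraries (log2 fold change −0.04) served both. The promoters of COL5A1, COL6A1, COL7A1, COL11A1, COL17A1 and COL18A1 had log2 fold changes of −0.03, 0.10, −0.09, 0.13, −0.11 and 0.02. Those of LAMA3, LAMA4, LAMA5, LAMB1, LAMB3 and LAMC1 had 0.03, 0.25, 0.07, 0.03, 0.02 and −0.11. None passed the test, with adjusted p-values of 0.434 or more by edgeR, and the sign of several was not stable between scalings. Over all peaks assigned to these genes and within 3 kb of their starts, 2 of 176 were called higher and none lower (1.14% and 0%). Of all promoter peaks, 0.695% and 0.596% were. One was at the start of LAMA2 and the other at the alternative start of COL11A2, with 86.2, 85.2 and 90.1 normalized counts in the empty vector libraries and 121, 108 and 176 in the HMGB2OE libraries (log2 fold change 0.61, standard error 0.18, adjusted p = 0.035 by edgeR). HMGB2OE replicate 3 stood above the other HMGB2OE libraries, and the COL11A2 call was lost by DESeq2, with the loess trend removed, with the replicate block and GC-content offsets, and without any library other than HMGB2OE replicate 2.

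**Figure D4:**
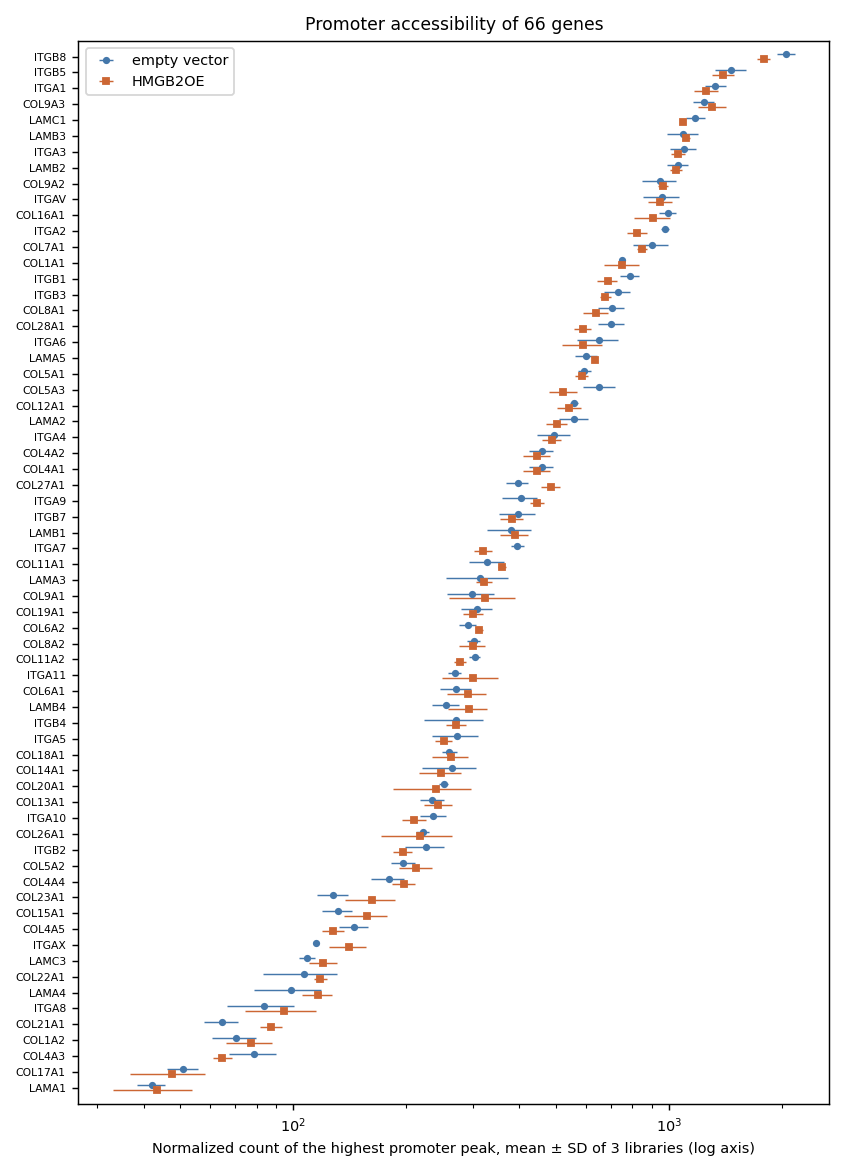
Points give the mean normalized count of the highest promoter peak of each of 66 genes in empty vector and HMGB2OE libraries, with SD bars over 3 libraries, on a log axis and ordered by level. Levels span 42.6 (LAMA1) to 1924 (ITGB8), and the 2 conditions lie close together at nearly every gene. At some genes, LAMA2 among them, the highest peak lies at an alternative start.

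Summing the counts of all peaks of a gene gave 1 value per gene, tested over 18350 genes with no fold limit. Of 81 sums, 7 were higher (8.64%, against 5.84% of all genes) and 4 were lower (4.94%, against 3.45%), and none of the 11 reached 1.5-fold. COL4A3 had the largest rise, 1.27-fold, with summed normalized counts of 726, 653 and 724 in empty vector and 899, 834 and 929.9 in HMGB2OE libraries (log2 fold change 0.34, standard error 0.07, adjusted p = 0.00636 by edgeR). Much of it came from 1 peak, since the log2 fold change was 0.11 without the called peak. COL2A1, the main collagen of cartilage, had 4689.8, 4783 and 5049 in empty vector and 5975, 5631 and 5689 in HMGB2OE libraries (log2 fold change 0.25, standard error 0.04, adjusted p = 0.000843 by edgeR), and all of its 9 tested peaks had a log2 fold change above 0. For COL27A1 the sums were 4315, 4603 and 4552 in empty vector and 5387, 5257 and 5167 in HMGB2OE libraries (log2 fold change 0.23, standard error 0.04, adjusted p = 0.00129 by edgeR), with 15 of 16 peaks above 0. The ITGA9 sums were 6189, 6315 and 6549 in empty vector and 7592, 7448 and 6985 in HMGB2OE libraries (log2 fold change 0.21, standard error 0.04, adjusted p = 0.00389 by edgeR). In COL2A1, COL27A1 and ITGA9 the groups did not overlap, and the log2 fold changes without called peaks were 0.24, 0.22 and 0.18.

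Among the falls, ITGB8 had 6424, 6612 and 6183 in empty vector and 5807, 5726 and 5478 in HMGB2OE libraries (log2 fold change −0.18, standard error 0.04, adjusted p = 0.00977 by edgeR), and without its called peak −0.16. The ITGB8 sum was lower in every HMGB2OE library than in any empty vector library, and its call was lost without empty vector replicate 2. LAMA4 sums had a log2 fold change of −0.20 (adjusted p = 0.0323 by edgeR) and one of −0.08 without the called peak, so that 1 peak carried most of the fall. ITGA7, a laminin receptor chain of muscle, had no called peak, yet its 3 peaks were each lower, and its sums were 1115, 1076 and 986 in empty vector and 835, 928 and 847 in HMGB2OE libraries (log2 fold change −0.28, standard error 0.07, adjusted p = 0.0134 by edgeR). COL23A1, ITGA8 and COL4A1 rose in sum (log2 fold changes 0.30, 0.18 and 0.22), COL23A1 and ITGA8 without a called peak. The calls at COL2A1, COL27A1 and ITGA9 were kept in every fit. The call at COL4A3 was lost without empty vector replicate 2. Further calls were lost when libraries were left out, COL4A1 without empty vector replicate 2 or HMGB2OE replicate 2 or 3, ITGA7 without empty vector replicate 1 or 2 or HMGB2OE replicate 1, COL23A1 and LAMA4 without any but empty vector replicate 3 and HMGB2OE replicate 2, and ITGA8 without any but empty vector replicate 3.

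**Figure D5:**
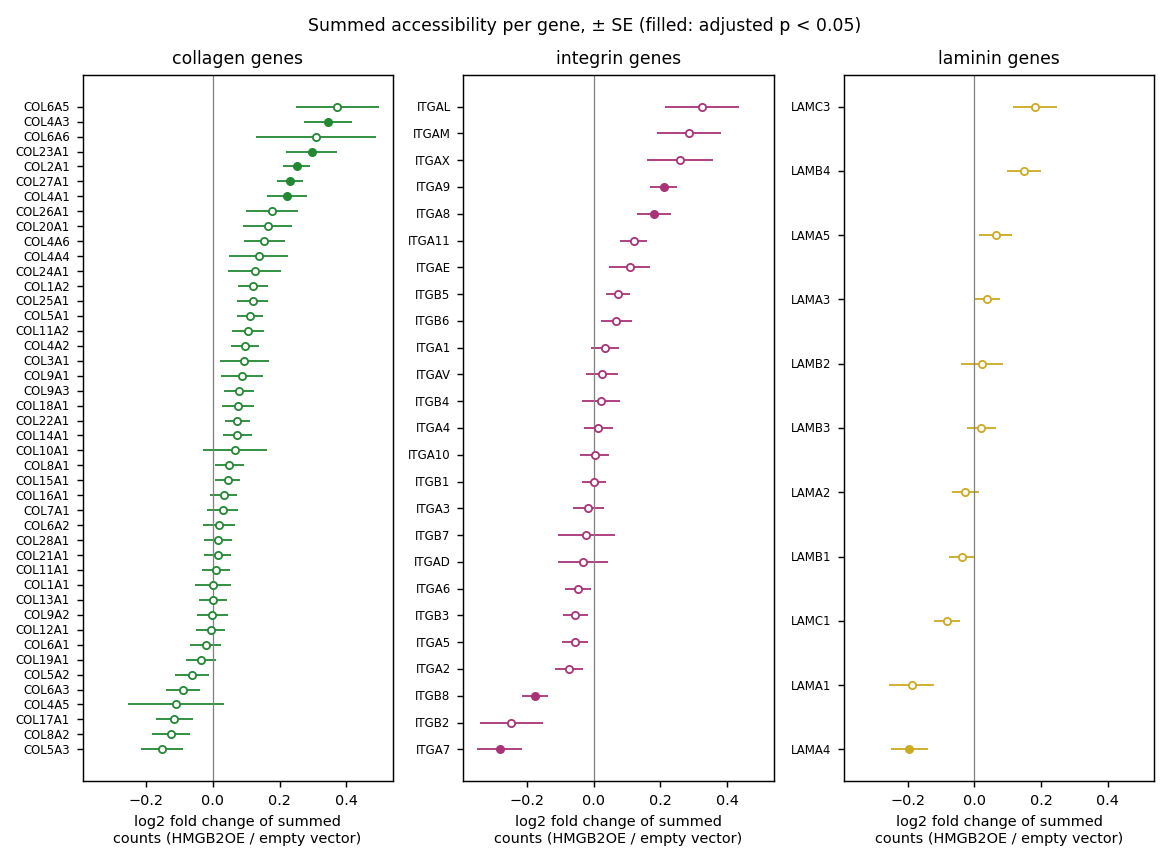
Points give the log2 fold change (HMGB2OE over empty vector) of the summed counts of all peaks of each gene reported here, with standard errors, in panels for collagen, integrin and laminin genes. Filled points have an adjusted p-value under 0.05 (7 above 0 and 3 below), and the widest bars belong to genes with few counts, such as COL6A6.

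Other genes of matrix assembly and adhesion were counted in 4 lists of 65 genes in all, with 951 tested peaks, of which 15 were called higher and 9 lower (1.58% and 0.946%, against 1.87% and 1.44% of all tested peaks). Their normalized counts are given as the mean ± SD of 3 libraries. In collagen folding and cross-linking, 3 peaks were higher and 1 lower of 218. COLGALT2, which adds galactose to collagen, had a peak that rose from 42.8 ± 8.95 in empty vector to 106 ± 0.712 in HMGB2OE libraries (log2 fold change 1.34, adjusted p = 0.000155 by edgeR), and PLOD2, which hydroxylates collagen lysines, one that fell from 189.7 ± 7.12 in empty vector to 100.1 ± 21.0 in HMGB2OE libraries (log2 fold change −0.91, adjusted p = 0.000414 by edgeR). Among basement membrane and matrix partners, 7 were higher and 4 lower of 314. NID2, which links laminin to collagen IV, had one that rose from 31.4 ± 16.2 in empty vector to 60.9 ± 1.07 in HMGB2OE libraries (log2 fold change 1.01, adjusted p = 0.0319 by edgeR) and one that fell from 99.99 ± 20.3 in empty vector to 51.8 ± 6.68 in HMGB2OE libraries (log2 fold change −0.95, adjusted p = 0.00456 by edgeR). TNC, a tenascin bound by ITGA9, had 4 intergenic peaks called higher, all 85.0 kb or more upstream, and 1 called lower in the gene, 1.95 kb from its start. Of integrin adaptors, 3 were higher and 4 lower of 302, and VCL, which encodes vinculin, had a fall from 85.9 ± 16.7 in empty vector to 40.4 ± 5.79 in HMGB2OE libraries (log2 fold change −1.07, adjusted p = 0.00355 by edgeR). Of other receptors, 2 were higher and none lower of 117, and DDR2, a receptor kinase for fibrillar collagen, rose from 219.8 ± 54.9 in empty vector to 426 ± 26.6 in HMGB2OE libraries (log2 fold change 0.95, adjusted p = 4.45e-05 by edgeR). Each of these 6 peaks passed edgeR's test, and both directions occurred among the peaks assigned to NID2, PLOD2, PTK2, TNC and VCL. Only in VCL did both lie in the gene body. In the other genes named, the peaks of 1 direction were intergenic.

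The called peaks of collagen, integrin and laminin genes lay mostly far from gene starts. Of 42, 1 was within 3 kb of its gene's start, 40 were over 10 kb away and 25 over 50 kb. Distances of all tested peaks are not given here, so these counts do not show that called peaks were farther away than others. Of the 1103 tested peaks of these genes, 176 were promoter peaks, so most were distant whether called or not. By location, introns held 18 higher and 8 lower of 607 tested peaks (2.97% and 1.32%), intergenic peaks 8 higher and 6 lower of 301 (2.66% and 1.99%), and exons outside promoters none of 19. Over the whole genome, 2.16% of tested peaks beyond promoters were higher and 1.66% lower. Called peaks had a median normalized count of 103 where higher and 96.1 where lower, beside 118 for all tested peaks of these genes. Median GC content was 48.0% in the peaks called higher, 39.5% in those called lower and 46.4% in all that were tested, and the same difference was present over all peaks of the genome (47.4% of called higher, 40.4% of called lower, 46.2% in all). Whether base composition contributed to the calls was examined only through GC-content offsets, under which 21 were called higher and 15 lower, where 1.72% and 1.34% of all tested peaks were.

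The shares of peaks that hold each word are given as a description, with few called peaks behind each share and no test. The E-box word was in 10 of 28 peaks called higher and 5 of 14 called lower (35.7% each), beside 35.2% of tested peaks of these genes and 31.9% of all peaks. The AP-1 word was in 35.7% and 28.6%, beside 31.4% and 28%, and the TEAD word in 35.7% and 21.4%, beside 34.3% and 29%. The SOX word was in 7 of 28 called higher and 0 of 14 called lower, beside 12.8% and 12.1%. CCAAT was in 53.6% and 35.7%, beside 44.3% and 48.2%, and GGGCGG in 21.4% and 14.3%, beside 19% and 21%.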

How the data were processed

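Raw ATAC-seq peak counts were deposited by the authors for 6 libraries, 3 empty vector and 3 HMGB2OE, as whole numbers with no normalization and no pooling. According to the methods of the study and the submitters' processing notes, reads were trimmed with Trim Galore 0.6.7 and cutadapt 4.0, aligned to hg38 with Bowtie 2, deduplicated with Picard, peak-called by MACS2 with public melanocyte data as control, freed of blacklisted regions, merged into 1 atlas of peaks (502 bp wide, except 15) and counted with featureCounts. Whether peaks were called per library, and whether positions were shifted for Tn5, is not given in the sources used here. Groups and replicate numbers came from the sample titles.

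Counts in peaks were 26910189 to 45645294 per library, which gives low-count peaks the larger errors. Testing used edgeR 4.0.16 under R 4.3.3 (filterByExpr, TMM, quasi-likelihood F test, no covariate, Benjamini–Hochberg adjustment over 150117 peaks). Calls needed an adjusted p-value under 0.05 and at least 1.5-fold. To normalize, each count was divided by its library's effective size relative to the mean size, and standard errors are the size of the log2 fold change over the square root of F. Promoter peaks were sought only among the peaks assigned to a gene, and are centred within 3 kb of a protein-coding transcript start of that gene in GENCODE release 44. A peak in overlapping genes was counted for each gene, once in totals. Symbols outside the naming pattern, such as ITGA2B, were tried only as an alternative. Summed counts per gene were tested likewise, with no fold limit and TMM over 18350 genes. Neighbour medians used tested peaks within 500 kb. Sequences were read from hg38 with pysam 0.24.0.

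On simulated data with 200 features changed by a log2 fold change of 1.5, the peak fit recovered 92% with 4 false calls among 149783 peaks, and the gene sums recovered 100% with 1 false call among 18346 genes. The planted change is larger than that of every called peak of these genes except COL22A1 (1.59). Recovery of changes near the 1.5-fold limit was not tested. The members, lists, words and naming rule were chosen with earlier results of these data known. Named are the 10 largest rises and falls among called peaks whose groups do not overlap, genes with 3 or more called peaks, called gene sums, promoter peaks of a set of well-known members, and the 3 largest rises and falls of the pathway lists. Other called peaks and LAMC1 were chosen for naming once their values had been seen. Alternatives included library totals, DESeq2 size factors or a loess trend as scaling, DESeq2 1.42.0 as test, other count filters, the replicate block, GC-content offsets, both together, a lower fold limit and none, centring on 10 Mb windows, other peak assignments, and leaving out each library. Results for withheld items are not reported here.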

Additional observations from a re-analysis of the deposited data

How the results depend on the processing

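No named called peak and no called gene sum changed sign in any fit. Over 24 named called peaks, 61 of 384 alternative values fell short of the thresholds, at 14 peaks, and over 11 gene sums 21 of 143, at 7 genes. Leaving out 1 library moved the peaks of these genes called higher to between 15 and 34 and those called lower to between 6 and 16. The ranges were 10 to 26 and 2 to 7 for collagen genes, 3 to 6 and 2 to 4 for integrin genes, 1 to 2 and 2 to 6 for laminin genes, and 3 to 9 and 1 to 4 for gene sums. The lowest values for gene sums were those without empty vector replicate 2. Over the fits with 1 library left out, 1.21% to 1.98% of all tested peaks were called higher and 1.03% to 1.48% lower. With a lower fold limit (0.32 on the log2 scale), 44 peaks were higher and 34 lower (collagen 31 and 14, 10 integrin and 10 laminin peaks lower). The share of all tested peaks at that limit is not given here. With no fold limit the counts were 44 and 38 (collagen 31 and 15, 11 integrin and 12 laminin peaks lower). There, 3.44% and 3.03% of all tested peaks passed. Integrin peaks called lower numbered 5 with the loess trend removed, with GC-content offsets and with these and the replicate block. Of all tested peaks, 1.77%, 1.34% and 1.47% were called lower in those fits, in that order. Integrin peaks called higher numbered 3 by DESeq2 and 4 with GC-content offsets, where 1.45% and 1.72% of all tested peaks were called higher. The median log2 fold change was 0.042 with library totals alone.

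The values did not settle whether replicate numbers pair the libraries. Same-numbered libraries had correlations of deviations of −0.089, 0.185 and 0.125, of which 0.185 was the highest of any pair. Empty vector replicate 1 was closest to HMGB2OE replicate 3 (0.152). With the replicate block, 33 peaks were called higher and 14 lower, and gene sums called higher rose from 7 to 13. Over all tested peaks the block also raised the shares called, from 1.87% to 2.13% higher and from 1.44% to 1.59% lower. The share of all gene sums called with the block is not given here.

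At the promoter peaks of the fixed set, none of which passed the threshold, 11 of 25 changed sign. With GC-content offsets, and with these and the replicate block, the log2 fold changes were −0.033 and −0.029 at LAMB3, 0.024 and 0.029 at ITGAV, −7.5e-05 and −0.0064 at COL1A1, 0.018 and 0.017 at COL5A1, 0.013 and 0.018 at ITGA4, 0.012 and 0.014 at the COL4A1 and COL4A2 peak, −0.032 and −0.019 at LAMA3, and 0.013 and 0.0096 at COL17A1. With the loess trend removed they were 0.0085 at ITGA3, 0.036 at ITGAV, 0.013 at COL5A1 and 0.010 at ITGA4. ITGAV had 0.0018 with library totals, and COL1A1 −0.00027 with the block. With 1 library left out, values ran from −0.048 to 0.068 at LAMB3, −0.107 to 0.0054 at ITGA3, −0.105 to 0.036 at ITGAV, −0.071 to 0.083 at COL1A1, −0.059 to 0.0023 at COL5A1, −0.073 to 0.068 at ITGA4, −0.103 to 0.028 at COL4A2, −0.072 to 0.116 at LAMB1, −0.110 to 0.108 at LAMA3 and −0.076 to 0.076 at COL18A1. The causes were not tested. Technical replicates of 1 line per condition and low counts at distant peaks limit what these values can show.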
